A study of Mus musculus with 2 samples.

Results

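ISG-high T cells are spleen T cells in which many interferon-stimulated genes (ISGs) were detected at once. A T cell was a cell with at least 200 genes, at most 25% of its counts from mitochondrial genes, and at least 1 unique molecular identifier (UMI, 1 counted molecule) of Trac, Cd3e or Cd3g. Members were selected on UMI detection: a T cell was called ISG-high when at least 4 of 10 gate genes (Ifit1, Ifit3, Isg15, Rsad2, Usp18, Oasl2, Rtp4, Irf7, Mx1 and Isg20) had at least 1 UMI. In all, 317 of 26285 T cells met this rule, among 26620 cells in the series, and they were described against the remaining 25968 T cells within each library. Because the rule selects on these counts, ratios of ISG-high over remaining cells are descriptions and not tests.

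The study compared LatY136F mice with LatY136F mice that also lack CD45 (CD45-KO), at 8 to 9 weeks of age, and its title names T cell activation as the question. Both genotypes carry the LatY136F allele, a point mutation in the T cell adaptor LAT that removes a docking tyrosine for phospholipase C gamma, so neither is a wild-type control. CD45, encoded by Ptprc, is a receptor tyrosine phosphatase that acts on the Src family kinases of T cells. Spleen cells sorted for CD3 and CD5 were captured with the BD Rhapsody system, 1 library per genotype. The stain also held a CD4 antibody. How many mice each library holds is not stated. With a single library on each side nothing could be tested across animals, so p-values are absent, and every 95% interval printed covers counting error and neither mouse nor capture differences.

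Type I interferons bind the receptor chains IFNAR1 and IFNAR2. The kinases JAK1 and TYK2 then activate STAT2, which joins IRF9 in a complex that binds the interferon-stimulated response element (ISRE) in the promoters of ISGs. The products include RNA and DNA sensors, inhibitors of viral replication, the ubiquitin-like modifier ISG15 with its enzymes, and STAT2, IRF7 and IRF9 themselves, while USP18 and SOCS proteins dampen the signal. Interferon gamma acts through its own receptor, and its targets overlap with these.

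Promoter sequences of the gate genes show where this element can be read directly. RefSeq promoters (GRCm38.p6, 250 bases before to 50 after the gene start) were present for 7 of the 10 gate genes, with none for Usp18, Rtp4 and Mx1. The ISRE core was searched as GAAA, any 2 bases and GAAA again, on both strands (TTTC, any 2 bases and TTTC on the other), with overlapping matches allowed. It was present in 4 of these 7, namely Ifit1, Ifit3, Isg15 and Rsad2, and absent from the windows of Oasl2, Irf7 and Isg20. The 150 bases before the start are shown for those 4 and for Oasl2, whose level was higher in CD45-KO than in LatY136F ISG-high cells, 5′ to 3′ on the strand of the gene, with each match in capitals.
Ifit1, chr19:34640739-34640888, plus strand: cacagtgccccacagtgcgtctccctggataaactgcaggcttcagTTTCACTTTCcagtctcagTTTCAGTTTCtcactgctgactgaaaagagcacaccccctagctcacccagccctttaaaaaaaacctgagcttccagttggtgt
Ifit3, chr19:34583379-34583528, plus strand: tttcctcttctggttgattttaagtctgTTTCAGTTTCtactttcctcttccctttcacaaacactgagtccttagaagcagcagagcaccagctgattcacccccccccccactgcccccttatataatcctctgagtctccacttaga
Isg15, chr4:156200819-156200968, minus strand: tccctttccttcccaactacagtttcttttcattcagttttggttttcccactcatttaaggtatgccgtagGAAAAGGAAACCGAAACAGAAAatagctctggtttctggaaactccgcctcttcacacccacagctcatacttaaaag
Rsad2, chr12:26456453-26456602, minus strand: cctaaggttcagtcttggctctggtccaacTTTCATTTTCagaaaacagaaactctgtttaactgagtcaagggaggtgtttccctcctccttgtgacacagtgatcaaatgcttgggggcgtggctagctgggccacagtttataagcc
Oasl2, chr5:114896784-114896933, plus strand: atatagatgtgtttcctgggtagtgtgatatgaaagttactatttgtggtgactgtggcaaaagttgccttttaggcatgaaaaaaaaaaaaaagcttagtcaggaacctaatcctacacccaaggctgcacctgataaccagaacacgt
Within the printed bases Ifit1 held 2 matches, and Isg15 held 3 that overlap in a single run. Ifit3 held 2 in the full window searched, of which 1 lies in the printed bases. A match is a description of the letters and not a mapped binding site.

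Among the 27025 genes of the promoter table, 3.99% held the motif, and among the genes counted in the comparison of expression it was 4.15% of the 4939 with a promoter. Of the ISGs outside the gate that were higher in ISG-high cells of both libraries (defined below), 27 of 53 with a promoter held it (50.9%). Of the 18 other counted ISGs, 11 had a promoter and 4 of these held it (36.4%). Genes outside the interferon lists that were higher in ISG-high cells held it in 7 of 65 promoters (10.8%), and genes that were lower held it in 2 of 84 (2.38%). The motif was thus more frequent in the promoters of listed ISGs than in those of all counted genes, whether or not the ISG was called higher.

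The 2 libraries were similar in depth, with 35300371 UMIs over 13775 LatY136F cells and 29268453 over 12845 CD45-KO cells, and a median of 2153 and 1991 UMIs per cell. Ptprc, the targeted gene (ENSMUSG00000026395.16; GRCm38 chromosome 1, 138062861 to 138175708), reached 1677 CPM (the UMIs of a gene scaled by those of the summed group) in LatY136F and 1079 CPM in CD45-KO ISG-high cells, and 1759 and 1170 CPM in the remaining T cells. Transcripts of the gene were thus still found in CD45-KO, at a lower level. Since which exons were targeted is not stated, these levels cannot check the genotype label. Between the libraries, 223 cell indices were shared, of which 2 LatY136F and 2 CD45-KO ISG-high cells carried one and 0 were ISG-high in both. Doublets were kept, and no doublet caller was used.

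Some ISG-high cells carried genes of other cell types, more often than the remaining T cells did. With a threshold chosen after seeing the data, at least 3 UMIs summed over 12 myeloid, dendritic and B cell genes, 8 of 184 LatY136F (4.35%) and 10 of 133 CD45-KO (7.52%) ISG-high cells went against the label. The same threshold marked 0.676% and 0.895% of the remaining T cells. Of the 10 CD45-KO cells, 6 had at least 3 UMIs of the myeloid lysozyme gene Lyz2, 6 of the MHC class II gene H2-Ab1 and 9 of the invariant chain gene Cd74, and their median was 6156.5 UMIs with 2 T cell UMIs. Of the 8 LatY136F cells, 2 had at least 3 UMIs of the neutrophil gene S100a8, and the 8 together held 286 of its 288 UMIs in ISG-high cells. Without these cells, Lyz2 in ISG-high cells was at 4.84 CPM in LatY136F and 2.57 CPM in CD45-KO, against 103 and 1049 CPM with them. The rule asks for only 1 T cell UMI, and 3 LatY136F and 9 CD45-KO ISG-high cells had exactly 1. Results are given with these cells and, where the value moved, without them.

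Whole marker lists were summed in the same way. The summed monocyte and macrophage list (12 genes) was at 1185 CPM in LatY136F and 3535 CPM in CD45-KO ISG-high cells, against 1052 and 1427 CPM in the remaining T cells. Without the other-type cells it was at 955 and 1225 CPM, against 1046 and 1344 CPM. Ccr2, 1 gene of this list, was alone at 698 and 1020 CPM in the remaining T cells. In ISG-high cells without the other-type cells Ccr2 was at 523 and 793 CPM. The dendritic cell list (10 genes) was at 190 and 3861 CPM, against 222 and 438 CPM in the remaining T cells. Without the other-type cells it was at 131 and 121 CPM, against 110 and 95.4 CPM. In the same order of LatY136F and CD45-KO, the neutrophil list (10 genes) was at 1559 and 21.5 CPM and then at 16.1 and 25.7 CPM. B cell genes had 2 and 7 UMIs in all, with 8 and 5 of 10 genes at 0 UMIs. With the other-type cells kept in both classes, immunoglobulin genes of plasma cells were lower in ISG-high cells. Igkc was at 41.9 CPM against 185 CPM in LatY136F and 161 CPM against 1528 CPM in CD45-KO. Leaving out the other-type cells moved the plasma cell list in the remaining T cells from 415 to 198 CPM and from 2484 to 310 CPM. In ISG-high cells that list moved from 156 to 144 CPM and from 371 to 347 CPM. The log2 ratios of Igkc were -0.35 and 0.30 without the other-type cells. The NK cell list was at 288 and 180 CPM, against 105 and 65.5 CPM. Without the other-type cells it was at 265 and 48.8 CPM, against 104 and 57.8 CPM. The granule protease gene Gzma, described below, made up most of this sum in both classes of LatY136F. In ISG-high cells 6 and 5 of the 10 genes had 0 UMIs. The plasmacytoid dendritic cell list, which shares the ISG Bst2, was at 241 and 302 CPM against 93.8 and 93.5 CPM. Gamma delta T cell genes were at 58.4 and 40.8 CPM against 94.6 and 75.0 CPM, and erythroid genes had 3 and 0 UMIs.

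ISG-high cells carried the genes of conventional T cells at levels near those of the remaining T cells. The rule asked for at least 1 UMI of Trac, Cd3e or Cd3g in both classes, and these genes are in the T cell identity list below. Near levels of these genes and of that list are thus partly set by the rule. Trac, the T cell receptor alpha constant region, was at 2010 CPM in LatY136F and 1581 CPM in CD45-KO ISG-high cells, against 2221 and 1842 CPM in the remaining T cells. Cd4 was at 625 and 521 CPM, against 572 and 622 CPM. With the other-type cells left out, Trac was at 2093 and 1836 CPM and Cd4 at 639 and 588 CPM, and the summed T cell identity list (13 genes) moved from 10134 to 10529 CPM in LatY136F and from 7544 to 8577 CPM in CD45-KO. Cd8a, which marks cytotoxic lineage T cells, had 0 UMIs in all ISG-high cells of both libraries, which allows a share of up to 1.63% of LatY136F and 2.26% of CD45-KO ISG-high cells with a UMI. It was scarce in the remaining T cells too, at 2.64 and 2.18 CPM.

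ISG-high cells were rare in both genotypes. They made up 1.35% of LatY136F T cells (184 of 13640, interval 1.16 to 1.56%) and 1.05% of CD45-KO T cells (133 of 12645, 0.881 to 1.25%). The log2 ratio of the shares, CD45-KO over LatY136F, was -0.36 (-0.69 to -0.03), and without the other-type cells -0.40 (-0.75 to -0.06). The libraries thus differed beyond counting error in this direction, with 1 library on each side.

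Detection depends on depth, and ISG-high cells were deeper than the rest: their medians were 2857.5 and 2681 UMIs in LatY136F and CD45-KO, against 2155 and 1993 UMIs. When each cell was thinned to 1000 UMIs before the rule was applied, 51 LatY136F (0.398%) and 36 CD45-KO (0.310%) cells passed. The log2 ratio of these shares was also -0.36, but its interval of -1.02 to 0.28 included 0. At this depth a difference between the genotypes was not detectable.

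The number of gate genes per cell declined without a gap. In LatY136F 9952 T cells had none of the gate genes, 2746 had 1, 575 had 2, 183 had 3, and 67, 46, 32, 20, 14 and 5 cells had 4, 5, 6, 7, 8 and 9. In CD45-KO the numbers were 9685, 2244, 457 and 126 for 0 to 3 genes, and 62, 30, 19, 9, 6 and 7 for 4 to 9. No cell had all 10. The threshold of 4 therefore cuts a graded distribution, and 67 of 184 LatY136F and 62 of 133 CD45-KO members lie at its lower edge.

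**Figure D1:**
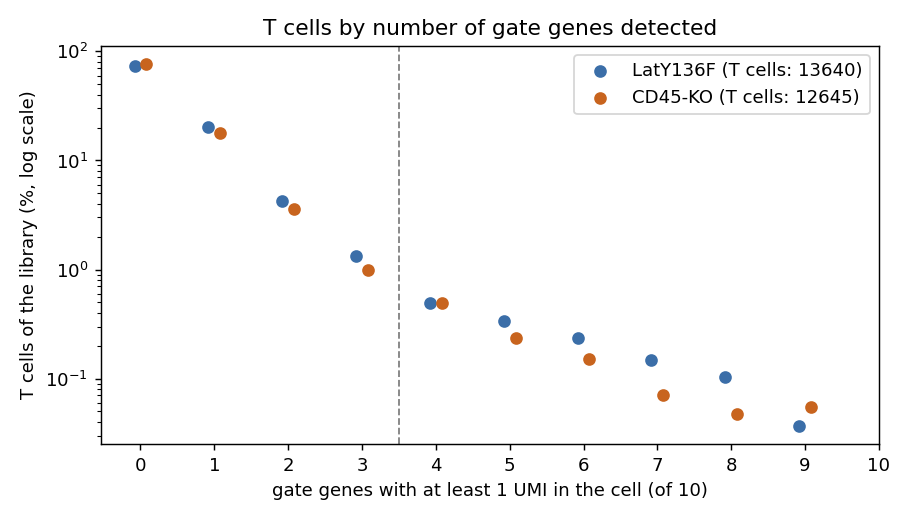
Share of T cells (percent, log scale) by the number of gate genes with at least 1 UMI in the cell, for LatY136F (blue) and CD45-KO (orange); the dashed line is the threshold, and groups with 0 cells are not drawn. Shares decline from 73.0% and 76.6% at 0 genes to 0.491% and 0.490% at 4 genes with no second peak.

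The ISGs outside the gate were also higher in cells with more gate genes. The 10 interferon lists (sensors, signalling, antiviral effectors, ISG15 conjugation, GTPases, PYHIN, Schlafen, PARP, TRIM and other genes) held 120 genes of the files besides the gate genes. Their summed level in LatY136F was 14511 CPM in cells with 0 gate genes, 20790 CPM with 3, just outside the threshold, 27296 CPM with 4, just inside, and 80634 CPM with 9. In CD45-KO it was 14149, 22997, 27409 and 76943 CPM. At matched depth, after thinning to 1000 UMIs, the mean number of these UMIs per LatY136F cell was 19.5, 24.3, 33.1 and 38.2 with 2, 3, 4 and 5 gate genes, and in CD45-KO 19.8, 24.4, 34.0 and 41.2. The cells with 3 gate genes lay between those with 0 and those with 4. From 2 to 5 gate genes, the difference between neighbouring numbers was largest from 3 to 4, but larger differences lay further inside the threshold. In LatY136F the mean was 41.1 with 7 and 56.9 with 8 gate genes (20 and 14 cells). In CD45-KO it was 41.2 with 5 and 56.5 with 6 (30 and 19 cells).

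**Figure D2:**
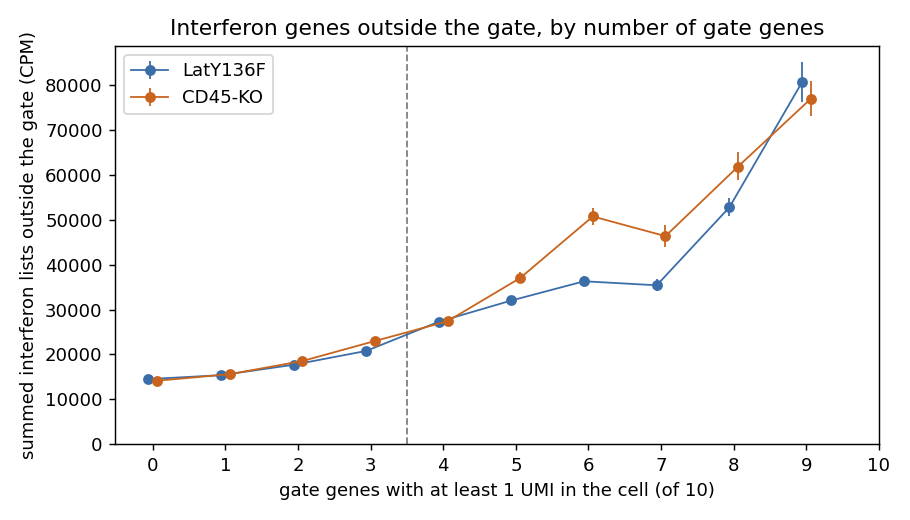
Summed level (CPM) of 120 interferon-list genes outside the gate, by number of gate genes detected, in LatY136F (blue) and CD45-KO (orange); bars are exact Poisson 95% intervals for counting error, and the dashed line is the threshold. The level climbs from 14511 and 14149 CPM at 0 genes to 80634 and 76943 CPM at 9 genes, with small dips at 7 genes, where 20 and 9 cells remain.

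ISG-high cells also varied widely among themselves. After thinning to 1000 UMIs, a LatY136F ISG-high cell held a median of 35 UMIs of the interferon lists outside the gate (lowest 2, highest 103), and a CD45-KO cell held 41 (7 to 111). The remaining T cells held medians of 15 (1 to 68) and 14 (1 to 59). Of these remaining cells, 101 in LatY136F (0.773%) and 34 in CD45-KO (0.279%) reached the median of the ISG-high cells of their library. The 2 classes overlapped cell by cell.

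The gate genes themselves show how the rule was met. Ifit1, which encodes a protein that binds foreign RNA caps, had at least 1 UMI in 81.0% of LatY136F and 72.2% of CD45-KO ISG-high cells, and stood at 818 and 635 CPM against 12.7 and 14.0 CPM in the remaining T cells. Isg15, the ubiquitin-like modifier, was at 341 and 262 CPM against 9.28 and 6.93 CPM. Rsad2, encoding the antiviral enzyme viperin, was at 282 and 242 CPM against 4.99 and 4.15 CPM. All 3 were far higher in ISG-high cells, as their use in the rule requires. Ifit3, which partners Ifit1, was found in 29.9% and 30.8% of ISG-high cells and in 0.275% and 0.248% of the remaining ones. Usp18, which removes ISG15 from proteins and restrains the interferon receptor, was at 183 and 169 CPM against 4.53 and 5.31 CPM.

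Rtp4, Irf7 and Isg20 were less restricted to these cells. Rtp4, a negative regulator of interferon responses, was detected in 65.8% and 71.4% of ISG-high cells and in 4.98% and 5.71% of the remaining cells. Irf7, the transcription factor that amplifies type I interferon, was in 60.3% and 59.4%, against 7.97% and 6.65%. Isg20, an exonuclease of viral RNA, was in 65.8% and 66.2%, against 9.94% and 8.14%. No gate gene was essential to the rule: 35 of 184 LatY136F and 37 of 133 CD45-KO ISG-high cells had no Ifit1 UMI.

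**Figure D3:**
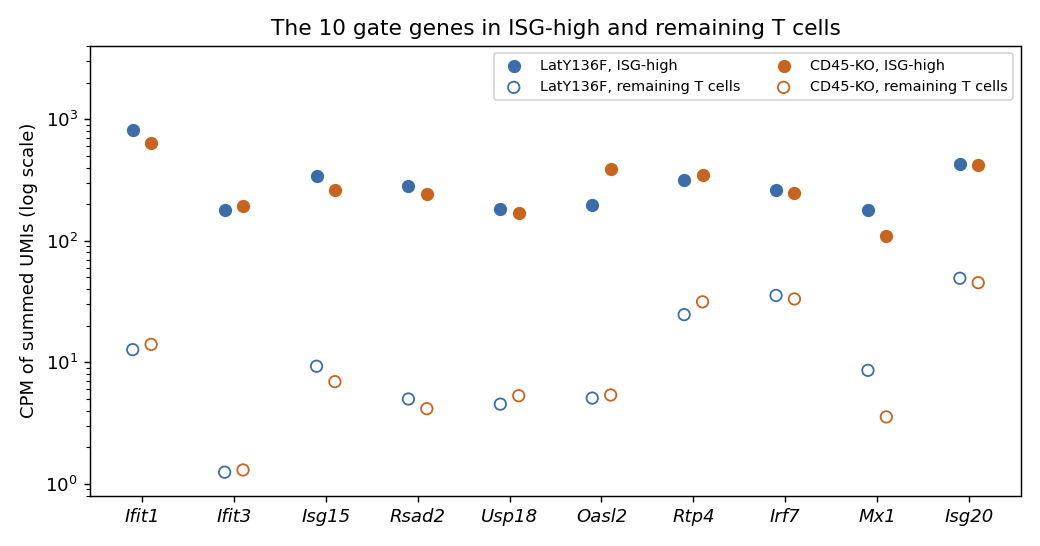
Level (CPM of summed UMIs, log scale) of the 10 gate genes in ISG-high cells (filled) and remaining T cells (open) of LatY136F (blue) and CD45-KO (orange), 1 library each and no error bars. All 10 are higher in ISG-high cells by the rule; Oasl2 is higher in CD45-KO ISG-high cells (196 and 390 CPM) and Mx1 is lower (178 and 109 CPM).

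Outside the gate, most listed ISGs were higher in ISG-high cells of both libraries. A gene was counted when it had at least 20 CPM over all T cells of each library, and called when it was at least 1.5-fold higher or lower in both. Of 6151 counted genes, 135 were higher (2.19%) and 115 lower (1.87%). Of the 120 listed ISGs, 80 were counted, 62 of these were higher and 0 lower, and the median log2 ratio was 1.51 in LatY136F and 1.51 in CD45-KO, against -0.09 and -0.08 over all counted genes. With the other-type cells left out, 64 of 80 were higher, with medians of 1.56 and 1.61, while 139 of 6142 genes were higher (2.26%) and 119 lower (1.94%). The rule used counts of the same cells, so these counts describe the class and are not evidence for it.

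Among nucleic acid sensors, 4 of 6 counted genes were higher. Ifih1, encoding the RNA sensor MDA5, was at 196 CPM in LatY136F ISG-high cells against 31.7 CPM in the rest, and at 277 against 35.8 CPM in CD45-KO (log2 ratios 2.63 and 2.95). Eif2ak2, the kinase PKR that halts translation on double-stranded RNA, was at 259 against 40.4 CPM and 208 against 30.8 CPM (2.68 and 2.75). Zbp1, a sensor of Z-form nucleic acids, had log2 ratios of 2.11 and 2.63. Tmem173, encoding the adaptor STING, had log2 ratios of -0.19 and -0.04.

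Of the signalling and transcription factor genes, 6 of 9 counted were higher. Stat2 was at 229 against 58.2 CPM in LatY136F and at 236 against 62.6 CPM in CD45-KO (1.98 and 1.91). Irf9, its DNA-binding partner, had log2 ratios of 1.04 and 1.24, so both were higher in both libraries. Ifi35, which interacts with Nmi, had log2 ratios of 1.72 and 1.45. The feedback inhibitors did not share one pattern across libraries: Socs1 had log2 ratios of 1.13 and 0.30 and Socs3 -0.11 and -0.66.

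Antiviral effectors outside the gate were higher in 8 of 12. Ifit1bl1, an Ifit family gene next to Ifit1 and Ifit3 on chromosome 19, was at 380 against 26.2 CPM in LatY136F and 324 against 41.6 CPM in CD45-KO (3.86 and 2.96). Its reads may be hard to separate from those of related Ifit genes. Cmpk2, a nucleotide kinase gene next to Rsad2, was at 301 against 28.1 CPM and 305 against 29.2 CPM (3.42 and 3.38). Samhd1, which depletes deoxynucleotides, was at 1057 against 235 CPM and 1098 against 243 CPM (2.17 and 2.18). Bst2, encoding the virus tether tetherin, had log2 ratios of 2.15 and 2.34. Apobec3, a cytidine deaminase gene, had 0.21 and 0.02, so this antiviral gene was nearly level between the classes.

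The enzymes that attach ISG15 to proteins were higher in 4 of 4. Uba7, the activating enzyme, had log2 ratios of 0.85 and 1.04, Ube2l6, the conjugating enzyme, 2.40 and 2.66, and the ligases Herc6 and Trim25 had 2.14 and 2.28, and 1.78 and 1.62. With Isg15 and its protease Usp18 in the gate, every step of this pathway that was counted was higher in both libraries.

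Interferon-inducible GTPases, which act on the membranes around intracellular pathogens, were higher in 7 of 8. Gbp2 was at 226 against 41.0 CPM in LatY136F and 255 against 44.6 CPM in CD45-KO (2.46 and 2.52). Irgm1, a regulator of autophagy, had log2 ratios of 2.44 and 2.25, and Irgm2 2.24 and 2.01. Tgtp2, which did not reach 20 CPM in the LatY136F library, had 2.67 and 2.63. Gbp and Irg genes are clustered families of close relatives, so their separate values depend on how the authors' counting split shared reads.

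Of the PYHIN family, DNA-binding proteins encoded in a cluster on chromosome 1, 7 of 8 were higher. Ifi204 was at 544 against 102 CPM in LatY136F and 431 against 40.6 CPM in CD45-KO (2.41 and 3.41). Ifi214 had log2 ratios of 2.38 and 2.80, and Ifi213 1.85 and 2.16. The exception was Aim2, the inflammasome sensor, with -0.23 and 0.32. Of the Schlafen family 3 of 4 were higher: Slfn5 was at 1074 against 153 CPM and 1045 against 157 CPM (2.81 and 2.73), Slfn8 was at 355 against 59.9 CPM and 384 against 67.8 CPM, Slfn1 at 1125 against 397 CPM and 1133 against 490 CPM, and Slfn2 had 0.53 and 0.40.

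The interferon-inducible PARP genes and their partner were higher in 5 of 5, with Parp9 at log2 ratios of 1.56 and 1.58, its partner ligase Dtx3l at 1.35 and 1.36, Parp10 at 1.57 and 1.19 and Parp14 at 1.36 and 1.77. Of the TRIM ubiquitin ligases 5 of 7 were higher, led by Trim30d (2.16 and 2.57), Trim30a (2.08 and 2.35), Trim21 (1.58 and 1.47) and Trim34a (111 against 45.6 CPM and 161 against 56.9 CPM). Of the other interferon-inducible genes 13 of 17 were higher. Phf11c was at 148 against 26.4 CPM in LatY136F and 87.9 against 22.2 CPM in CD45-KO (2.49 and 1.99). Daxx, a histone chaperone of nuclear bodies, had log2 ratios of 2.14 and 1.78, Lgals3bp 1.69 and 1.81, and Phf11b 1.62 and 1.74. Ly6e, an abundant surface gene of T cells, had 0.08 and 0.27.

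**Figure D4:**
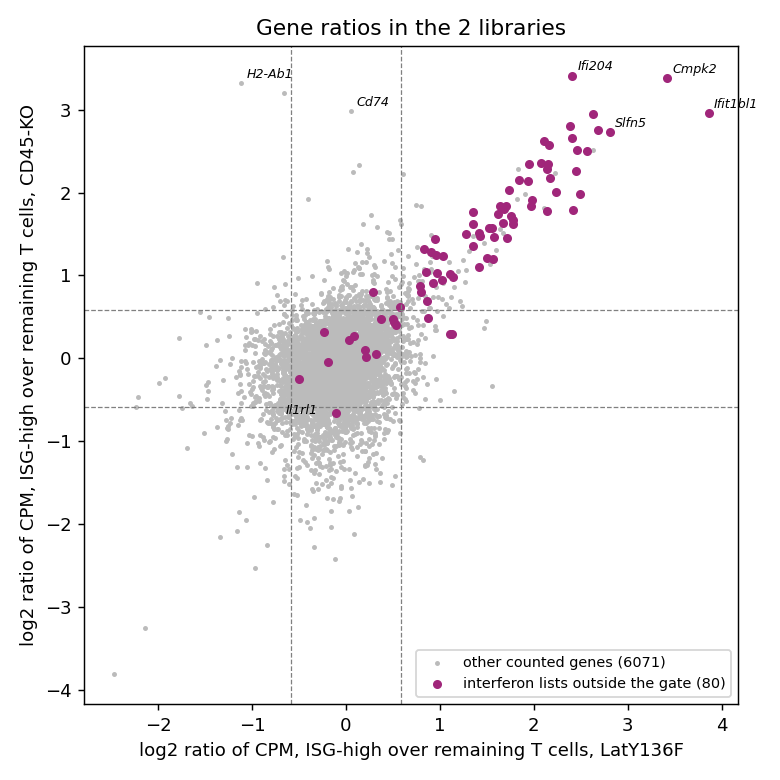
Log2 ratio of CPM, ISG-high over remaining T cells, in LatY136F (x axis) and CD45-KO (y axis) for 6151 counted genes; purple points are the 80 interferon-list genes outside the gate, grey points all others, and dashed lines mark 1.5-fold. Of the purple points, 62 lie past 1.5-fold in both libraries at upper right; the other-type cells held 99.2% of H2-Ab1 and 95.2% of Cd74 UMIs of CD45-KO ISG-high cells.

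MHC class I presentation, which interferon of either type can induce, was higher to a smaller degree. Of 20 counted genes 8 were higher and 0 lower, with medians of 0.49 in LatY136F and 0.62 in CD45-KO. Nlrc5, the transactivator of class I genes, had log2 ratios of 1.64 and 1.57, H2-T22 0.96 and 0.87, the immunoproteasome subunit gene Psmb10 0.84 and 0.75 and the chaperone tapasin, Tapbp, 0.77 and 0.73. The classical class I genes H2-K1 and H2-D1 were near level, at 0.11 and 0.09 and at 0.07 and -0.02. Of 3 counted genes of the list for interferon gamma 1 was higher, Cd274, which encodes the inhibitory ligand PD-L1, at 112 against 37.1 CPM and 129 against 52.0 CPM (1.60 and 1.31).

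The receptors and kinases upstream of these genes did not share the pattern. Of 8 counted, 0 were higher and 0 lower in both libraries, with medians of -0.13 in LatY136F and 0.01 in CD45-KO. Ifnar1 had log2 ratios of -0.03 and -0.17, Ifnar2 -0.27 and 0.30, Jak1 -0.25 and -0.24 and Tyk2 -0.10 and 0.01. Ifngr1 had 0.44 and 1.53, and without the other-type cells 0.35 and 0.04. Of the 20 interferon genes listed, 3 were in the files, and Ifnb1 and Ifnl3 had 0 UMIs in ISG-high cells of both libraries. Ifng had 0 UMIs in LatY136F and 4 UMIs in CD45-KO ISG-high cells. Transcripts of interferon itself were thus near the limit of detection in these cells.

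Among all other counted genes, those highest in ISG-high cells by the interval bound nearest 0 were Rnf213, Ifi47, Trafd1, Helz2, Nampt, Pml, Nlrc5, Fam111a, Samd9l, Tmem184b, Grn and Ppa1. Rnf213, a giant ubiquitin ligase, was at 437 against 70.7 CPM in LatY136F (2.63, interval 2.45 to 2.81) and 528 against 92.6 CPM in CD45-KO (2.51, 2.32 to 2.70). Ifi47, an interferon-inducible GTPase that was not in the lists, was at 867 against 186 CPM and 847 against 180 CPM (2.22 and 2.23). Pml, the scaffold of nuclear bodies, had log2 ratios of 2.11 and 1.81, Trafd1, a feedback regulator of innate signalling, 1.91 and 1.98, and Helz2, a nuclear coactivator, 1.83 and 1.92. Nampt, the enzyme of NAD salvage, had 1.83 and 2.29, and the antiviral gene Samd9l 1.25 and 1.18. Several of these are known ISGs that the lists left out. Grn, a lysosomal growth factor gene that is abundant in myeloid cells, fell from 1.35 and 1.47 to 1.04 and 0.61 without the other-type cells, and Tmem184b in CD45-KO from 1.52 to 0.97. Thinned before the rule, Grn in CD45-KO turned to -0.19, and under the stricter removal of cells with 2 or more UMIs of the B, monocyte, dendritic and neutrophil lists Ppa1 turned to -0.021.

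Among the genes that were lower, Il1rl1 ranked first. Il1rl1, encoding the interleukin 33 receptor ST2 of T helper 2 and regulatory cells, was at 334 against 542 CPM in LatY136F (-0.70, -0.90 to -0.51) and 403 against 671 CPM in CD45-KO (-0.74, -0.95 to -0.53). Without the other-type cells the log2 ratios were -0.61 and -0.62. After thinning to 1000 UMIs, 30.2% of LatY136F ISG-high cells had an Il1rl1 UMI (23.6 to 37.5%) against 38.7% of the remaining cells. In CD45-KO it was 30.1% (22.4 to 38.6%) against 44.0%. Among 34 other-type cells without T cell UMIs, pooled over the libraries, 2.94% had 1 after the same thinning, from a median of 4393 UMIs before it. Without the other-type cells the thinned shares were 31.6% (24.8 to 39.1%) in LatY136F and 32.5% (24.4 to 41.6%) in CD45-KO, so the LatY136F interval then included the share of the remaining cells. Before thinning, the shares were 49.5% against 57.1% and 57.9% against 60.9%.

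The other genes lowest by the same rule were Tmem64, Rfx1, Il7r, Trat1, Neat1, Adcy7, Zfp36l2, Irf2bpl, Add3, Add1 and S1pr1. This rank does not ask for 1.5-fold. Il7r, Trat1, Adcy7, Zfp36l2, Add3, Add1 and S1pr1 were not at least 1.5-fold lower in both libraries and so were not called. Il7r, the interleukin 7 receptor that sustains resting T cells, was at 943 against 1292 CPM in LatY136F (-0.45) and 1218 against 1864 CPM in CD45-KO (-0.61), and only the second ratio passed 1.5-fold. With cells thinned to 1000 UMIs before the rule was applied, the CD45-KO ratios of Il7r and Neat1 turned to 0.25 and 0.088. S1pr1, the receptor for exit from lymphoid organs, had -0.44 and -0.57. Zfp36l2, an RNA-binding protein of quiescence, had -0.39 and -0.50, and Trat1, an adaptor of the T cell receptor complex, -0.47 and -0.54. Neat1, a nuclear noncoding RNA, had -0.85 and -0.62, and the transcription factor gene Rfx1 -0.73 and -0.85.

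The lists of T cell states held few called genes. Of naive and quiescent genes 1 of 15 was higher and 0 lower (medians -0.34 and -0.41). With the other-type cells left out, 0 of 15 were higher. Of activation and effector genes 0 of 22 were called (-0.16 and -0.27), and of proximal receptor signalling genes 0 of 22 (-0.13 and -0.21). Regulatory T cell genes had 0 of 9 called, Tfh genes 0 of 8, Th1 and cytotoxic genes 0 of 6, inhibitory receptors 0 of 8, common gamma chain receptors 0 of 8, heat shock genes 0 of 10 and oxidative phosphorylation genes 0 of 24. Of glycolysis genes 1 of 15 was lower, the glucose transporter gene Slc2a1 (-0.67 and -0.61), and 0 of 15 with the other-type cells left out. Leaving those cells out also added 1 higher gene to the Tfh and inhibitory receptor lists, Tox (0.61 and 0.78), and 1 to the Th2 list, the cytokine gene Il4 (1.47 and 0.69). Under the stricter removal of cells with 2 or more UMIs of the B, monocyte, dendritic and neutrophil lists, Il4 in LatY136F turned to -0.18. Of Th2 genes 1 of 8 was lower, Il1rl1, while the Th2 regulator Gata3 had -0.24 and -0.38. Of apoptosis genes 1 of 9 was higher, Tnfsf10, which encodes the death ligand TRAIL and is also an ISG (1.03 and 0.90). Of early receptor-induced genes 2 of 20 were lower and 0 higher, Fosb (-0.78 and -0.63) and Ier3 (-0.73 and -0.85). Thinned before the rule, Fosb in CD45-KO turned to 0.14. Over all counted genes 2.19% were higher and 1.87% lower, and counts of 1 or 2 genes allow no reading of a list's share.

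Cell cycle genes had 6 of 24 called higher, with medians of 0.47 in LatY136F and 1.08 in CD45-KO. Tpx2, a spindle assembly gene, had log2 ratios of 0.75 and 1.85, Kif11, a spindle motor gene, 0.90 and 1.08, and Pclaf, a replication clamp partner, 0.83 and 1.08. With the remaining T cells weighted to the depth of the ISG-high cells the medians were -0.26 in LatY136F and -0.46 in CD45-KO, and without the deepest 1% of T cells 0.21 and -0.64. Leaving out the other-type cells, 3 of 22 were higher. After thinning, the proliferation marker Mki67 had a UMI in 14.8% of LatY136F ISG-high cells (10.01 to 20.8%) against 9.46% of the rest, and in 6.02% of CD45-KO ISG-high cells (2.63 to 11.5%) against 5.23%. Before thinning it was in 49 of 184 cells (26.6%) against 16.8%, and in 16 of 133 cells against 9.51%. Of the 34 other-type cells, 17.6% had a Mki67 UMI after thinning.

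Shares of cells with markers of T cell subsets were mostly close to those in the remaining T cells. After thinning, Cd4 was detected in 43.4% of LatY136F ISG-high cells (36.1 to 50.9%) against 41.9%, and in 39.8% of CD45-KO ISG-high cells (31.5 to 48.7%) against 43.4%. Tcf7, which encodes TCF-1, a factor of naive and stem-like cells, was detected in 12.6% (8.18 to 18.4%) against 14.7%, and in 24.8% (17.7 to 33.0%) against 29.2%. Foxp3, which defines regulatory T cells, had a UMI in 2 of 182 thinned LatY136F cells and in 0 of 133 CD45-KO cells, which allows up to 2.26%. Klrg1, a receptor of differentiated cells, was in 3.30% (1.22 to 7.04%) against 5.15%, and in 4.51% (1.67 to 9.56%) against 9.18%. In the 34 other-type cells the shares were 14.7% for Cd4, 5.88% for Tcf7, 0% for Foxp3 and 0% for Klrg1.

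Gzma, a granule protease gene whose share of cells was added after its values were seen, differed between the classes in LatY136F. It was at 228 CPM in LatY136F ISG-high cells against 78.7 CPM in the rest, and after thinning had a UMI in 10.4% (6.40 to 15.8%) against 4.12%. Before thinning it was 20.7% against 7.80%. In CD45-KO 6 Gzma UMIs gave 12.9 CPM in ISG-high cells against 18.9 CPM in the rest, while the share of cells was 0.752% (0.0190 to 4.12%) against 0.616% after thinning and 3.76% (1.23 to 8.56%) against 1.21% before it. Level and share thus gave no common direction in CD45-KO. Whether this contrast differs between the genotypes was not tested. None of the 34 other-type cells had a Gzma UMI, and Eomes, the 1 counted gene of the NK cell list, was at 31.5 and 23.6 CPM in ISG-high cells against 20.3 and 29.6 CPM.

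Receptor segments gave little information. ISG-high cells held 36 Trbv UMIs over 10 segments in LatY136F and 24 over 8 segments in CD45-KO. The most frequent was Trbv13-2 in LatY136F, with 13 UMIs (36.1%, 20.8 to 53.8%) against 32.2% in the rest. In CD45-KO it was Trbv3 with 6 of the 24 UMIs, and in the rest Trbv2 with 23.6%. ISG-high cells thus used several segments in each library, and at this depth no difference in use was detectable for Trbv13-2.

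By the median over genes, listed ISGs outside the gate had a similar level in ISG-high cells of the 2 genotypes. Cells of both libraries passed the same gate, so a similar level is partly set by the rule. Summed, the 120 listed ISGs were at 34270 CPM in LatY136F and 37203 CPM in CD45-KO ISG-high cells. Without the other-type cells they were at 35300 and 39139 CPM. The median log2 ratio of the 80 counted ISGs outside the gate, CD45-KO over LatY136F, was 0.02, and 0.07 without the other-type cells, against 0.05 in the remaining T cells. Of these 80 genes 5 were at least 1.5-fold higher and 5 lower in CD45-KO. Over all 6151 counted genes 662 were higher (10.8%) and 724 lower (11.8%), while in the remaining T cells 78 were higher (1.27%) and 164 lower (2.67%). ISG-high cells held 667727 and 466174 UMIs against 34468564 and 28417304 in the rest, and the part of this lower depth in the larger counts was not tested.

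For a part of the ISGs, gate genes among them, the counting interval of the genotype ratio lay apart from 0, and not all are named here. Isg15 of the gate had -0.38 (-0.71 to -0.06), and -0.42 in the rest. On the high side Ifih1 had 0.50 (0.13 to 0.86), Ifi213 0.58 (0.27 to 0.90) and Tgtp2 0.96 (0.48 to 1.45). In the rest these 3 had 0.18, 0.27 and 1.00. Oasl2, an oligoadenylate synthetase-like gene of the gate, was at 196 CPM in LatY136F and 390 CPM in CD45-KO ISG-high cells (log2 ratio 0.99, 0.66 to 1.33), and at 5.08 and 5.38 CPM in the rest (0.08). Its ratio was 1.00 (0.63 to 1.37) without the other-type cells. After thinning, it was detected in 14.3% (9.55 to 20.2%) and 32.3% (24.5 to 41.0%) of ISG-high cells. Oasl2 is part of the rule, and of all the gate genes it alone was at least 1.5-fold higher in CD45-KO ISG-high cells. Mx1, a dynamin-like antiviral GTPase gene, was at 178 and 109 CPM (-0.70, -1.21 to -0.22), and at 8.59 and 3.55 CPM in the rest (-1.27). Ifit1 had -0.36 (-0.57 to -0.16) in ISG-high cells, -0.21 without the other-type cells and 0.14 in the rest. Whether such ratios differ between ISG-high and remaining cells was not tested.

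Parp14 was at 219 CPM in LatY136F and 367 CPM in CD45-KO ISG-high cells (0.75, 0.42 to 1.08) and had 0.33 in the rest, and Trim30d 0.73 (0.32 to 1.13) and 0.31. On the low side Socs1 was at 112 and 55.8 CPM (-1.01, -1.71 to -0.35; -0.18 in the rest), Igtp at 294 and 184 CPM (-0.67, -1.05 to -0.30; -0.04 in the rest) and Phf11c had -0.75 (-1.32 to -0.21; -0.25 in the rest). Ifi204 was at 544 and 431 CPM (-0.33), and in the rest at 102 and 40.6 CPM (-1.33). Ifi208, another PYHIN gene, was at 62.9 and 345 CPM in ISG-high cells (2.46, 1.96 to 2.98) and at 14.9 and 93.6 CPM in the rest (2.65). It was higher in ISG-high cells within each library and higher in CD45-KO within each class, and did not reach 20 CPM over all LatY136F T cells.

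**Figure D5:**
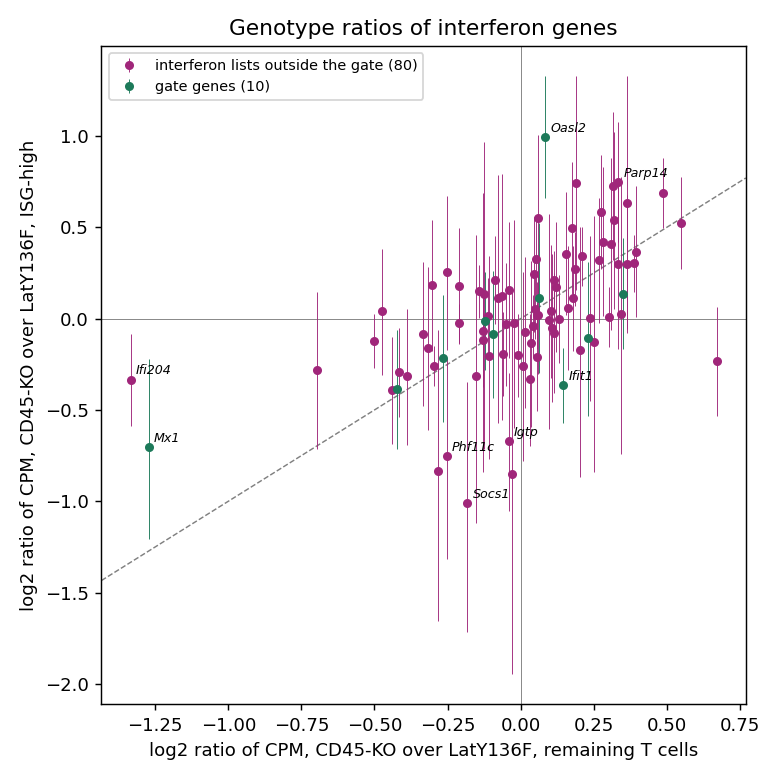
Log2 ratio of CPM, CD45-KO over LatY136F, in remaining T cells (x axis) and ISG-high cells (y axis) for the 80 counted interferon-list genes outside the gate (purple) and the 10 gate genes (green); bars are exact 95% counting intervals for the ISG-high ratio, and the dashed line marks equal ratios. Oasl2 lies high above the line (0.99 and 0.08), and Ifi204 and Mx1 have lower ratios in the rest (-1.33 and -1.27) than in ISG-high cells.

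Among all counted genes the rank by the interval bound nearest 0 was led on the high side by genes of the other-type cells. H2-Ab1, H2-Aa, Cd74, Psap and Gpx1 had log2 ratios, CD45-KO over LatY136F, of 5.82, 5.52, 3.58, 1.5 and 1.44, and without the other-type cells -0.067, -0.92, -0.067, 0.061 and 0.10. Those cells held 99.2% of the H2-Ab1 UMIs of CD45-KO ISG-high cells. Tcf7 was at 142 and 339 CPM (1.25, 0.88 to 1.63) and had 1.30 without those cells and 1.22 in the rest. Klrg1 had 1.88, 2.29 without those cells and 0.80 in the rest, Ccr2, a chemokine receptor gene, 1.06, 0.60 and 0.55, and Rgs2, a regulator of G protein signalling, 1.92, 1.45 and 0.91. Thinned before the rule, the ratio of Klrg1 turned to -1.5 and that of Psap to -0.42, and Rgs2 turned to -0.95 without cells with 2 or more UMIs of the B, monocyte, dendritic and neutrophil lists. Jun, Arl13b and Kctd12 completed the 12 with 2.23, 2.52 and 1.80, from 39 or fewer UMIs in each library, and had 1.12, 2.16 and 0.89 without those cells.

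On the low side Hdc, the histamine-forming enzyme, was at 108 and 12.9 CPM in ISG-high cells (-3.07, -4.56 to -1.87) and at 62.6 and 29.3 CPM in the rest (-1.09). Il2ra, the high-affinity interleukin 2 receptor chain, was at 124 and 19.3 CPM (-2.69) and at 55.8 and 25.3 CPM in the rest (-1.14). Without the other-type cells Il2ra was at 80.7 and 20.5 CPM (-1.97). Hdc and Il2ra had only 6 and 9 UMIs in CD45-KO ISG-high cells, and Camk2b, a calcium-dependent kinase gene, had 7. Camk2b had a ratio of -2.74 in ISG-high cells and -1.44 in the rest, and the galectin gene Lgals7 -1.64 and -0.98. Pglyrp1, a peptidoglycan recognition protein of granules, had -1.26 and -1.08, Treml2 -1.45 and -1.07, and Pclaf -1.23 and -1.48. Car5b, Zfp280b, Ica1l and Myo6 had -2.80, -1.92, -1.97 and -1.72, with 12 or fewer UMIs in CD45-KO ISG-high cells. In the rest these had -1.32, -0.48, -1.15 and -0.70. Zfp280b turned to 0.50 when cells were thinned before the rule.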

How the data were processed

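The 2 deposited tables, 1 per genotype, hold RSEC error-corrected UMI counts per cell and gene, not normalized. The BD WTA Multiplex Rhapsody Analysis Pipeline 1.9.1 produced them on GRCm38 with GENCODE M19, per the file headers; the design text names pipeline 2.0 and the submitters' processing notes GRCm39, and the headers were followed. Gene locations come from GENCODE M21 (GRCm38). Counts were summed per class and library and scaled to CPM with python 3.11.15, numpy 2.4.6, scipy 1.17.1 and pandas 2.3.3. Ratios have exact conditional binomial and shares exact Clopper-Pearson 95% intervals, which cover counting error only; 0 counts allow up to 3. The interval computation was run on simulated independent Poisson counts, the setting that the intervals assume. These hold no clustering of UMIs within cells, so the run checks the computation only. For shares at matched depth, cells were thinned at random to 1000 UMIs, which left out 2 LatY136F and 0 CD45-KO ISG-high cells and 396 and 328 remaining T cells. A difference of mice and of captures cannot be told apart from genotype.

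The cells, gene lists and the naming rule were chosen with earlier results of these data known. Named genes are the gate genes, up to 4 per list by ratio, and by the interval bound nearest 0 the 12 highest and 12 lowest outside the interferon lists and between genotypes; receptor segment, mitochondrial, ribosomal, haemoglobin, immunoglobulin, sex-linked and unnamed genes stayed out of these ranks. Genes outside this rule (Apobec3, Tmem173, Socs3, Aim2, Ly6e, H2-K1, H2-D1, Ifnar1, Ifnar2, Igtp, Igkc and the shares for Gzma and Eomes among them), the removal of other-type cells and the promoter motif were chosen after values were seen. The 14 alternatives are in the closing section. Some named genes are not reported here.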

Additional observations from a re-analysis of the deposited data

How the results depend on the processing

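No paired analysis was possible because each genotype has 1 library and the results come from no test; for the same reason no replicate could be left out. Each alternative changed 1 choice, and the cause of a shift was not tested. The ratio of shares stayed below 0 and the interferon list median, ISG-high over rest, above 0 in each alternative run. The shares in LatY136F and CD45-KO were 2.69% and 2.05% with at least 3 gate genes, 0.858% and 0.561% with at least 5, and 0.398% and 0.310% after thinning; with a mitochondrial share of at most 10% the CD45-KO share was 1.30%. With at least 3 gate genes 42 genes were lower in both libraries, 415 higher and 444 lower in CD45-KO, and the dendritic list median in LatY136F was 2.44. With at least 5, 239 were lower and 1215 lower in CD45-KO. After thinning, 316 were higher, 369 lower and 1157 higher in CD45-KO; the monocyte list in CD45-KO was at -0.048, the NK list in LatY136F at -0.21, Fosb, Grn, Il7r and Neat1 in CD45-KO at 0.14, -0.19, 0.25 and 0.088, Pclaf in LatY136F at -0.34, and Klrg1, Psap and Zfp280b between genotypes at -1.50, -0.42 and 0.50. Removing cells with 2 or more UMIs of the B, monocyte, dendritic and neutrophil lists, some of which T cells express, left shares of 0.854% and 0.605%, with 234 higher, 362 lower, and 1552 higher and 1226 lower in CD45-KO; the monocyte list in CD45-KO was at -0.14, the NK list in LatY136F at -0.21, Grn and Ppa1 in CD45-KO at -0.65 and -0.021, Il4 and Tpx2 in LatY136F at -0.18 and -1.003, and Pclaf, Psap and Rgs2 between genotypes at 0.56, -0.14 and -0.95. Without the deepest 1% of cells, the CD45-KO values were -0.64 for the cell cycle list, 0.16 for the plasma cell list, -2.28 for Kif11, -1.53 for Pclaf and -2.15 for Tpx2. Without the other-type cells, chosen after seeing the data, the plasma and monocyte lists in CD45-KO were at 0.30 and -0.14, the dendritic list in LatY136F at 0.29, and Cd74, H2-Aa and H2-Ab1 between genotypes at -0.067, -0.92 and -0.067. With the rest weighted by depth 72 genes were lower; the cell cycle list in CD45-KO was at -0.46, Aurkb at -0.084 and -0.56, Pclaf at -0.10 and -0.98 and Tpx2 at -0.14 and -0.12 in LatY136F and CD45-KO, and Kif11 in CD45-KO at -0.77. At 5 CPM 269 were higher, 356 lower, and 1450 higher and 1409 lower in CD45-KO, with the plasmacytoid list in LatY136F at -0.30. At 50 CPM these were 73, 25, 179 and 254, with 38 ISGs higher and the dendritic list in LatY136F at 0.052. At 2-fold they were 68, 11, 172 and 193. Depth limits each value that rests on ISG-high cells alone.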
